A study of Mus musculus with 18 samples.

Results

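The α-, β- and γ-crystallins are the main soluble proteins of the eye lens. Described here are 10 crystallin genes, of 78239 genes in the count tables: the 2 α-crystallins *Cryaa* and *Cryab*, the acidic β-crystallins *Cryba1*, *Cryba2* and *Cryba4*, the basic β-crystallins *Crybb1*, *Crybb2* and *Crybb3*, and the γ-like genes *Crygs* and *Crygn*. They were chosen by name after an earlier analysis of the same libraries had shown uneven crystallin levels, so their differences between vectors are a description. The fit across all genes also gives calls for them, which are printed beside the share of all genes called and are no independent test. The question was whether their RNA followed the 6 lens γ-crystallins *Cryga* to *Crygf* or the injected vector.

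RNA was sequenced from retinas at 3 weeks after subretinal injection (wpi) of AAV::*nsHif1a* (5 libraries) or AAV::eGFP (5 libraries). *nsHif1a* encodes a mouse HIF1A that stays stable and active at normal oxygen, and eGFP is a fluorescent control protein. Both were driven by the rod-specific mouse opsin promoter in the same AAV2 capsid, so the transgene acts in those rods that the virus reached, while the library holds RNA of the whole retina. Mice were injected at postnatal days 29 to 32. The labels give their genotype as C57BL/6J, whereas the study's methods name wild-type 129S6 mice, and the strain could not be settled here. In addition, 661W cells, a mouse photoreceptor-like line, were harvested 20 h after transfection with plasmids for *nsHif1a* or eGFP under the ubiquitous CMV promoter (4 libraries per group). No source states that the cell libraries came from separate cultures, so their spread may be technical.

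The α-crystallins belong to the small heat shock proteins and act as chaperones that hold other proteins in solution, and *Cryab* is also made in heart, muscle and glia. The β- and γ-crystallins share one fold and pack densely in lens fibre cells, where *Cryga* to *Crygf* are typical of the fibres of the young lens. Crystallin RNA is also known from retinal neurons and Müller glia, and retinas in this study were taken out through a cut in the cornea, next to the lens.

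In the retina, 9 of the 10 genes varied together between libraries, whichever vector had been injected, and no gene separated the groups. The α-crystallins moved least, the β-crystallins and *Crygs* more, the lens γ-crystallins most, and *Crygn* went its own way. In 661W cells only *Cryab* was abundant, with a log2 difference of 0.01 between the plasmids.

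Promoters of 5 crystallins are shown to let a reader see which sequences stand before genes that did and did not move together: *Cryaa* as the most abundant, *Cryba4* as the steepest against the γ-crystallins, *Crybb2* as the most abundant β-crystallin, *Crygn* as the gene that moved apart, and *Crygd* as a lens γ-crystallin. Each is the 250 bases before the RefSeq start of transcription, 5′ to 3′ on the gene's strand, in build GRCm38.p6, which differs from the build of the counts. Capitals mark the MAF half-site TGCTGA, bound by lens MAF factors, and the HIF core motifs ACGTG and GCGTG, searched on both strands. The windows are chr17:31677681-31677930 (+) for *Cryaa*, chr5:112252519-112252768 (-) for *Cryba4*, chr5:113070118-113070367 (-) for *Crybb2*, chr5:24757849-24758098 (-) for *Crygn* and chr1:65063441-65063690 (-) for *Crygd*.
Cryaa: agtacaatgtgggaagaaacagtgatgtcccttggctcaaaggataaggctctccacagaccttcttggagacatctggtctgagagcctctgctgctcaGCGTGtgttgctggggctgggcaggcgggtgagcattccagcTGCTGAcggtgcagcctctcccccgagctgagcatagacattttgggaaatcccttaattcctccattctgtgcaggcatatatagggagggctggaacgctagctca
Cryba4: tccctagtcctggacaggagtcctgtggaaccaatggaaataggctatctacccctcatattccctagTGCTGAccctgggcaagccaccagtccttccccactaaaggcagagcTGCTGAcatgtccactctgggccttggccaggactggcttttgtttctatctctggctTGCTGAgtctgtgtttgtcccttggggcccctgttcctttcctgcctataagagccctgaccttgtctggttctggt
Crybb2: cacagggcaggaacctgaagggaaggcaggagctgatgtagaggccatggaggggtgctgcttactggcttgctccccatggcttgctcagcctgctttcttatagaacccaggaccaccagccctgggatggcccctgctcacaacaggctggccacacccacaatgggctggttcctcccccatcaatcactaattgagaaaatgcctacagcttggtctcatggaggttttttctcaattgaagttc
Crygn: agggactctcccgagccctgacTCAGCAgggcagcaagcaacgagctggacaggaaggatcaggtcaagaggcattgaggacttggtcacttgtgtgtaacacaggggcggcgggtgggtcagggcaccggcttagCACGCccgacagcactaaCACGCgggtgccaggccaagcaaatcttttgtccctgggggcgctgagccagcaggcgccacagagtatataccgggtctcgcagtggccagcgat
Crygd: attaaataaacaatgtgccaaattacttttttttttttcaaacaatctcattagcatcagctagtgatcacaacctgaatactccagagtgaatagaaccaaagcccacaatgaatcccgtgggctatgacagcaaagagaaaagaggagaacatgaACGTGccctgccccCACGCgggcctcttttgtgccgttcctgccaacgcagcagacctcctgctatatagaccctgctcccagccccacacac

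Of the 9 genes with a window in the RefSeq table (all but *Cryab*), 8 held TGCTGA, against 16.1% of the 32851 windows of the same length. *Cryba4* held it 3 times and *Crybb2* was the gene without it. Among *Cryga* to *Crygf* it stood in 2 of 6, *Cryga* and *Crygc*. GCGTG stood in 3 of the 9 windows, once each in *Cryaa* and *Crybb3* and at 2 places in *Crygn*, against 28.2% of all windows. ACGTG was in none of the 9, against 16.6%, and the heat shock element GAANNTTC was in none either, against 6.69%. These letters describe the windows and show no binding.

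The genes lie on 6 chromosomes, here in GRCm39. *Cryba4* (chr5:112394359-112402226, minus strand) and *Crybb1* (chr5:112400811-112417965, plus strand) overlap at their starts on opposite strands and were counted by strand. *Crybb2* (chr5:113206124-113217983) and *Crybb3* (chr5:113223705-113229450) are neighbours on the minus strand. *Crygn* (chr5:24956001-24963006) is far from both pairs on the same chromosome. *Cryaa* lies at chr17:31896781-31900707, *Cryab* at chr9:50651859-50668567, *Cryba1* at chr11:77609441-77616120, *Cryba2* at chr1:74929093-74932302 and *Crygs* at chr16:22623953-22630327. Of the 50-base words in their transcripts, 2.5% for *Crybb1* and 0.0% for the other 9 also occur in another gene, so their reads can be placed. For *Cryga* to *Crygf* the share was 18.5% to 44.6%, and counts of single lens γ-crystallins are uncertain.

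Retinal libraries held 12898220 to 16167522 counts and those of cells 13424326 to 17809585, so 3 counts, the most that a count of 0 allows, stood for 0.168 to 0.233 CPM (counting error only). CPM is a gene's share of a library's counts on a fixed scale, adjusted by TMM. The HIF targets *Bnip3*, *Vegfa*, *Slc2a3* and *Pdk1* were called up with *nsHif1a* in both systems. Total *Hif1a* RNA was 3.26 higher on the log2 scale in transfected cells and 0.05 higher in the retina. Rod genes were measured at 43934 to 48648 CPM in sum with AAV::eGFP and 34305 to 45646 CPM with AAV::*nsHif1a*, whereas in 661W cells 5 of 7 cone markers had 3 counts or fewer in every library. *Xist*, the X-inactivation transcript, had 1 to 3 counts in AAV::eGFP replicates 3, 4 and 5 and 19492 to 28595 counts in the other 7 retinal libraries, so this class differed between the vectors.

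The 10 crystallins together took 1.59%, 1.85%, 1.60%, 3.60% and 3.06% of all counts in AAV::eGFP replicates 1 to 5, and 3.42%, 2.48%, 3.89%, 4.74% and 1.16% in AAV::*nsHif1a* replicates 1 to 5. The highest and the lowest share were thus both found with AAV::*nsHif1a*. The 6 lens γ-crystallins took 0.0692%, 0.210%, 0.0634%, 0.280% and 0.0956% with AAV::eGFP and 1.06%, 0.130%, 1.12%, 1.82% and 0.0956% with AAV::*nsHif1a*. They were high in AAV::*nsHif1a* replicates 1, 3 and 4 alone, and replicate 5 of both groups had the same low share. In bulk retina, more lens-type cells in a sample and more RNA per cell cannot be told apart.

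**Figure D1:**
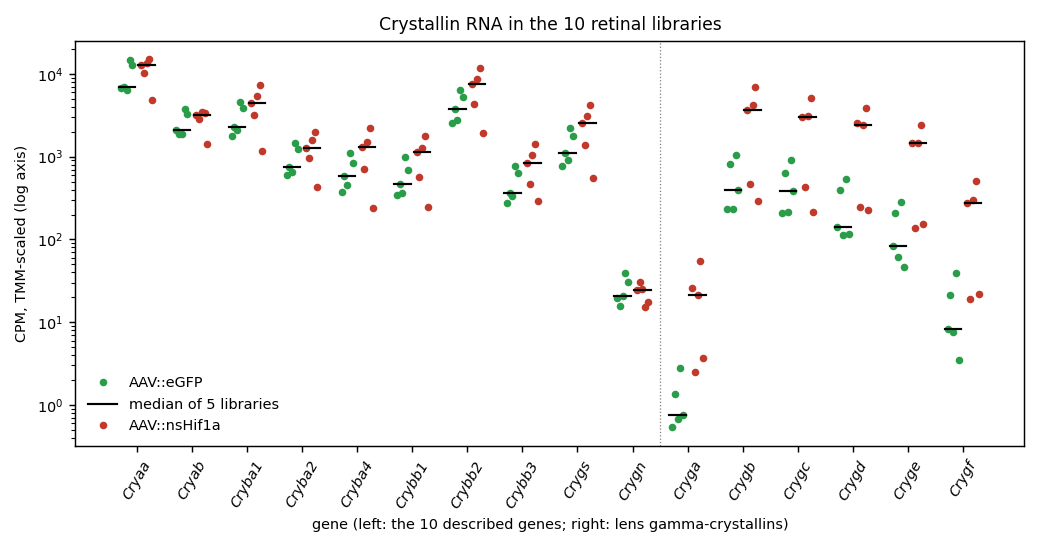
CPM (log axis) of the 10 described crystallins and of *Cryga* to *Crygf* in each of the 10 retinal libraries, 1 point per library, green for AAV::eGFP and red for AAV::*nsHif1a*, with the median of 5 libraries as a line. The groups overlap for all 10 genes on the left, and the spread is widest for the lens γ-crystallins on the right.

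*Cryaa*, the lens α-crystallin that partners αB, had 6821, 7042, 6460, 14849 and 12736 CPM in AAV::eGFP replicates 1 to 5 and 12688, 10203, 13592, 15093 and 4807 CPM in AAV::*nsHif1a* replicates 1 to 5. AAV::eGFP replicates 4 and 5 were as high as the AAV::*nsHif1a* libraries, and AAV::*nsHif1a* replicate 5 was the lowest of all. Means were 9582 ± 3921 CPM (SD, n = 5) and 11277 ± 4029 CPM (SD, n = 5), and the fitted log2 fold change (log2FC) was 0.21 (SE 0.29, 95% limits -0.41 to 0.84).

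*Cryab*, the chaperone αB-crystallin, had 2073, 1906, 1897, 3793 and 3277 CPM with AAV::eGFP and 3155, 2823, 3497, 3397 and 1416 CPM with AAV::*nsHif1a*. No AAV::*nsHif1a* library exceeded AAV::eGFP replicate 4. The log2FC was 0.14 (SE 0.24, 95% limits -0.37 to 0.66), and the correlation with *Cryaa* over the 10 libraries was r = 0.99. The counts of *Cryab* were 0.225 to 0.304 of those of *Cryaa* in every library, the steadiest ratio of any of the genes (coefficient of variation 9.07%).

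Among the acidic β-crystallins, which pair with basic ones in the lens, *Cryba1* had 1799, 2316, 2096, 4572 and 3835 CPM with AAV::eGFP and 4503, 3186, 5483, 7342 and 1180 CPM with AAV::*nsHif1a*. Replicates 3 and 4 of AAV::*nsHif1a* lay above all AAV::eGFP libraries and replicate 5 below all of them. *Cryba2* had 603, 743, 654, 1466 and 1222 CPM with AAV::eGFP and 1271, 962, 1588, 1987 and 431 CPM with AAV::*nsHif1a*, in the same order at both ends. *Cryba4* had 376, 590, 450, 1100 and 845 CPM with AAV::eGFP and 1311, 707, 1488, 2201 and 243 CPM with AAV::*nsHif1a*. Here 3 libraries, replicates 1, 3 and 4, lay above the AAV::eGFP range, and the 9.05-fold span between replicates 4 and 5 of AAV::*nsHif1a* was the widest of the 10 genes. Their log2FC were 0.44 (SE 0.38), 0.33 (SE 0.34) and 0.61 (SE 0.45).

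The basic β-crystallins showed the same libraries at the top. *Crybb1* had 345, 463, 360, 981 and 683 CPM with AAV::eGFP and 1154, 567, 1274, 1796 and 250 CPM with AAV::*nsHif1a*. *Crybb2*, the major β-crystallin of the mature lens, had 2586, 3764, 2771, 6463 and 5279 CPM with AAV::eGFP and 7665, 4362, 8782, 11934 and 1950 CPM with AAV::*nsHif1a*. *Crybb3* had 278, 362, 335, 772 and 630 CPM with AAV::eGFP and 831, 472, 1063, 1421 and 293 CPM with AAV::*nsHif1a*. For each of the 3, AAV::*nsHif1a* replicates 1, 3 and 4 exceeded every AAV::eGFP library and replicates 2 and 5 did not. *Crybb3* was the only gene of the 10 whose lowest library was AAV::eGFP replicate 1. The log2FC were 0.63 (SE 0.43) for *Crybb1*, 0.57 (SE 0.38) for *Crybb2* and 0.63 (SE 0.38) for *Crybb3*, whose limits of -0.20 to 1.45 included no change.

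*Crygs*, a γ-like crystallin of the mature lens cortex, had 773, 1105, 924, 2201 and 1764 CPM with AAV::eGFP and 2548, 1399, 3124, 4253 and 552 CPM with AAV::*nsHif1a*. It went with the β-crystallins: its correlation with *Crybb2* over the 10 libraries was r = 0.998, and its log2FC was 0.61 (SE 0.43). *Crygn*, related to both the β- and the γ-crystallins, had 19.7, 15.8, 20.98, 38.9 and 30.6 CPM with AAV::eGFP and 24.2, 30.7, 25.5, 15.2 and 17.8 CPM with AAV::*nsHif1a*. It was lowest in AAV::*nsHif1a* replicate 4, where 8 of the 10 genes had their highest value. Its log2FC of -0.08 (SE 0.24) turned to 0.42 with *Xist* class as a covariate, so its direction depended on the fit.

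In all, 9 of the 10 log2FC were positive, 1 was negative and their median was 0.50, beside a median of -0.00 over the 18859 genes tested. None was called up or down (adjusted p under 0.05 and absolute log2FC above 0.5 in limma), where 1.99% of all genes were called in either direction, 1.08% up and 0.912% down. None had an unadjusted p under 0.05 in limma, edgeR or DESeq2, but the share of all genes under that limit was not computed. For none of the 10 did the 2 groups of libraries stand apart, which they did for 5.94% of all genes. The limits are wide and reach a log2FC of 1.58 for *Cryba4*, so these libraries do not show that the vectors gave equal levels. With *Xist* class as a covariate the values rose to between 0.42 (*Crygn*) and 1.17 (*Crybb3*), including 0.67 for *Cryaa*, still with none called. The 6 lens γ-crystallins had log2FC of 1.72 (*Crygc*) to 3.30 (*Cryga*), and none of these was called. Unlike the 10 described genes, all 6 had an unadjusted p under 0.05 in limma, from 0.011 (*Cryge*) to 0.045 (*Cryga*). Their adjusted p in the same fit was 0.10 (*Cryge*) to 0.22 (*Cryga*). The limits of all 6 were wide but excluded no change, at 0.70 to 4.40 for *Cryge* and 0.09 to 6.51 for *Cryga*.

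Per kilobase of transcript, *Cryaa* was the most abundant, at a mean of 8317 ± 3073 CPM per kb (SD, n = 10), followed by *Crybb2* at 7600 ± 4341 CPM per kb. The order of these neighbours did not hold in every library, since *Cryaa* was above *Crybb2* in 7 of 10. *Cryba1* came next at 4602 ± 2410 CPM per kb, below *Crybb2* in all 10 libraries. *Crygs* (2131 CPM per kb), *Cryab* (1612) and *Cryba2* (1518) were close, *Crygs* being above *Cryab* in 6 libraries and *Cryab* above *Cryba2* in 8. *Cryba4* followed at 1152 CPM per kb, *Crybb3* at 780 and *Crybb1* at 564. *Crygn* was far below them at 31.2 CPM per kb.

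The lens γ-crystallin level, taken as the mean log2 CPM of *Cryga* to *Crygf*, ranged 40.4-fold over the libraries. It was 5.27, 6.72, 5.18, 7.32 and 5.22 with AAV::eGFP and 9.67, 6.39, 9.67, 10.51 and 6.24 with AAV::*nsHif1a*. A gap from 7.32 to 9.67 therefore set AAV::*nsHif1a* replicates 1, 3 and 4 apart from the other 7 libraries. Over this range the described genes rose by far less than the γ-crystallins. For each unit of the γ level, *Cryab* was 0.13 (SE 0.07) and *Cryaa* 0.19 (SE 0.08) higher in log2 CPM. The β-crystallins rose by 0.25 (*Cryba2*, SE 0.09) to 0.39 (*Cryba4*, SE 0.10), *Crygs* by 0.38 (SE 0.09), and the slope of *Crygn* was -0.03 (SE 0.08). The slopes of *Cryga* to *Crygf* on their own mean were 0.84 to 1.21.

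The correlation with the γ level over 10 libraries was r = 0.56 (rho = 0.62) for *Cryab*, r = 0.64 (rho = 0.71) for *Cryaa*, r = 0.85 (rho = 0.79) for *Crybb1* and r = -0.14 (rho = -0.12) for *Crygn*. All these points share the library and its size factor. Without the 2 libraries farthest from the median γ level, r was 0.39 for *Cryab*, 0.45 for *Cryaa* and 0.69 for *Crybb1*. Among the 7 libraries below the gap, r was 0.25 for *Cryab*, 0.29 for *Cryaa*, 0.41 for *Crybb2* and 0.44 for *Crybb1*, so much of the relation of these genes rested on the 3 libraries above it. These 7 libraries still differed 3.09-fold in *Cryaa* and 3.31-fold in *Crybb2*.

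**Figure D2:**
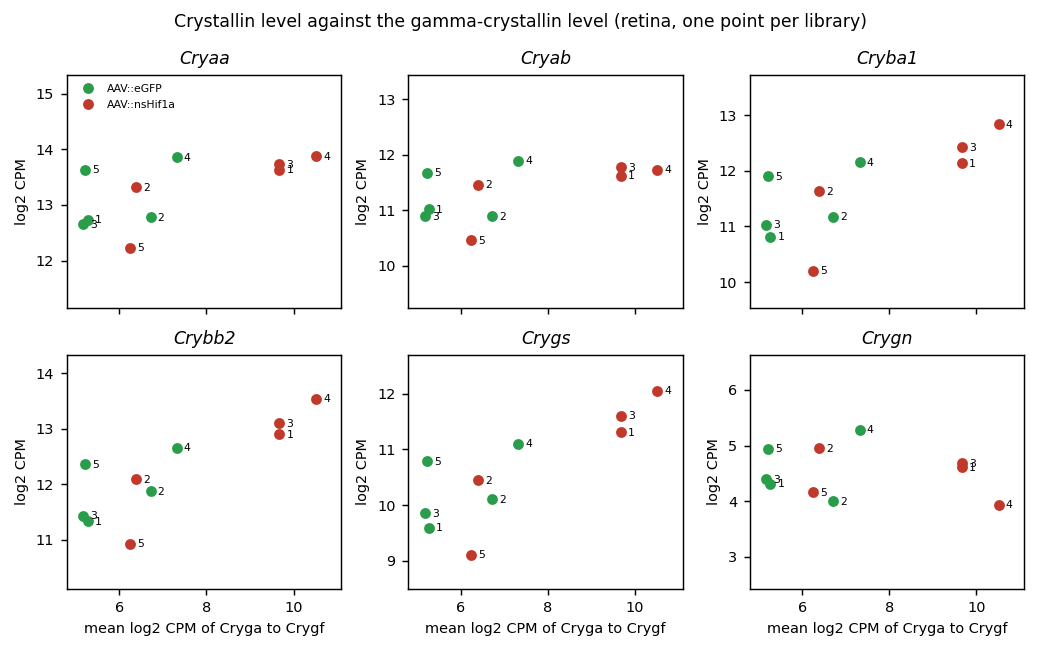
Log2 CPM of 6 crystallins (y axis, same span in each panel) against the mean log2 CPM of *Cryga* to *Crygf* (x axis) in the 10 retinal libraries, numbered by replicate, green for AAV::eGFP and red for AAV::*nsHif1a*. *Crybb2* and *Crygs* are highest in AAV::*nsHif1a* replicates 1, 3 and 4, *Cryaa* and *Cryab* are about as high in AAV::eGFP replicates 4 and 5, and *Crygn* shows no rise.

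A few libraries show this apart. AAV::eGFP replicate 5 had a low γ level of 5.22, like replicates 1 and 3 at 5.27 and 5.18, but its *Cryaa* was 12736 CPM where those had 6821 and 6460 CPM. *Crybb2* likewise stood at 5279 CPM there, against 2586 and 2771 CPM. AAV::*nsHif1a* replicates 2 and 5 had almost equal γ levels of 6.39 and 6.24, yet *Cryaa* was 10203 and 4807 CPM and *Crygs* was 1399 and 552 CPM. High α-crystallin RNA was thus measured both with and without high γ-crystallin RNA. For *Cryba4*, *Crybb1*, *Crybb2*, *Crybb3* and *Crygs* the highest levels were those of the 3 libraries above the gap. There *Crybb2* had at least 7665 CPM, against at most 6463 CPM with AAV::eGFP.

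The 3 libraries above the gap had 1.64 times the *Cryaa* and 1.44 times the *Cryab* of the other 7 (ratio of geometric means). The ratio was 1.98 for *Cryba2*, 2.58 for *Crybb2*, 2.86 for *Crygs* and 2.94 for *Cryba4*, whereas for *Crygd* it was 13.3. These 3 libraries were all of AAV::*nsHif1a*, so above the gap the γ level and the vector cannot be told apart.

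Of the spread in log2 CPM over the 10 libraries, the γ level alone accounted for 31.3% in *Cryab*, 40.4% in *Cryaa*, 69.7% in *Crybb2* and 71.9% in *Crybb1*. The vector alone accounted for 2.22% in *Cryab*, 3.96% in *Cryaa*, 13.1% in *Crybb2* and 13.6% in *Crybb1*, and at most 18.9% in any of the 10 (*Crybb3*). In *Crygn* both shares were small, 2.09% for the γ level and 2.03% for the vector. The vector went with 44.5% of the spread of the γ level itself, so these shares overlap.

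In a fit that compared the vectors at equal γ level, 9 of the 10 log2FC were negative and *Crygn* stood at 0.08. The γ level ran from 5.18 to 7.32 with AAV::eGFP and from 6.24 to 10.51 with AAV::*nsHif1a*. No AAV::eGFP library lay above the gap, so the comparison there rests on a straight line drawn beyond the AAV::eGFP libraries. *Cryaa* had -0.29 (95% limits -0.98 to 0.39), *Crybb2* -0.39 (-1.06 to 0.29), *Crygs* -0.44 (-1.22 to 0.34) and *Cryba4* -0.49 (-1.29 to 0.31). The median of the 10 was -0.39, beside -0.00 over all genes, and none was called, where 1.53% of all genes were, 1.09% up and 0.445% down. Over the 13 alternatives to this fit, the log2FC of *Cryba2*, *Cryba4*, *Crybb1*, *Crybb2*, *Crybb3* and *Crygs* stayed negative, from -1.27 to -0.06 for *Cryba4* and from -1.09 to -0.06 for *Crygs*. Those of *Cryaa*, *Cryab* and *Cryba1* were above 0 in 1 alternative each, at 0.01, 0.07 and 0.02, and that of *Crygn* changed sign in 6.

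**Figure D3:**
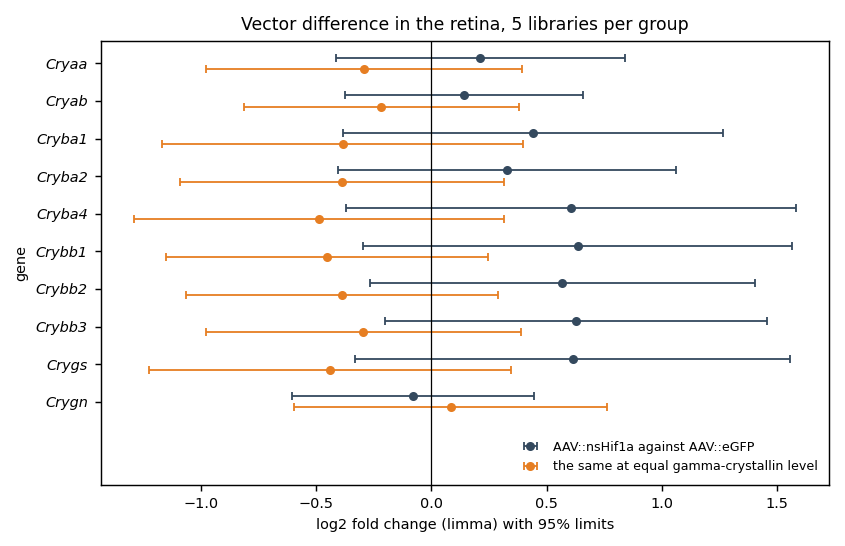
Log2 fold change of AAV::*nsHif1a* against AAV::eGFP in the retina (x axis, points with 95% limits from limma, 5 libraries per group) for each of the 10 crystallins. Dark points compare the vectors directly and orange points at equal γ-crystallin level, and all 20 intervals include 0.

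Relative to *Cryaa* in the same library, *Crybb2* counts varied from 0.379 to 0.791, *Crygs* counts from 0.113 to 0.282 and *Cryba4* counts by 2.88-fold. The summed γ-crystallins varied 16.9-fold, from 0.0744 to 1.26 of *Cryaa*. The ratios of *Crybb2*, *Crygs* and *Cryba4* were highest in AAV::*nsHif1a* replicate 4, where the γ-crystallins exceeded *Cryaa* and the ratio of *Cryab* was lowest at 0.225. The makeup of crystallin RNA therefore differed between libraries, as well as its amount. Beside the r of 0.99 between *Cryaa* and *Cryab*, *Cryab* had r = 0.95 with *Cryba2* and r = 0.87 with *Crybb3*, and *Crygn* had r = 0.59 with *Cryab* and r = 0.21 with *Crybb2* (10 libraries each).

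**Figure D4:**
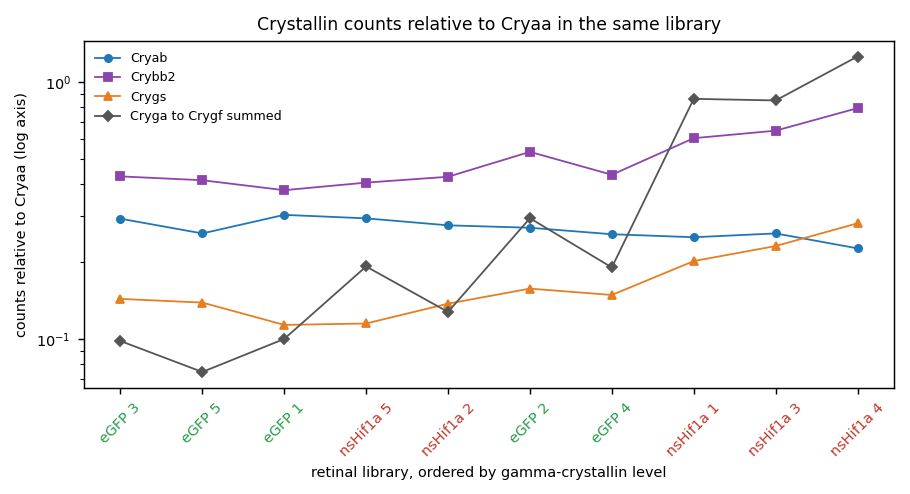
Counts of *Cryab*, *Crybb2*, *Crygs* and the sum of *Cryga* to *Crygf* relative to *Cryaa* (log axis) in the 10 retinal libraries, ordered from the lowest to the highest γ-crystallin level, with green names for AAV::eGFP and red for AAV::*nsHif1a*. *Cryab* stays between 0.225 and 0.304, *Crybb2* and *Crygs* are highest at the right, and the γ-crystallins span 16.9-fold.

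Other genes of the lens differed between libraries in the same uneven way. Of 12 lens fibre genes, 10 were tested, 9 were higher with AAV::*nsHif1a* (median log2FC 0.88) and none was called. *Lgsn*, a lens-specific relative of glutamine synthetase, had a slope of 1.06 on the γ level and *Bfsp1*, an intermediate filament of fibres, 0.80, like the γ-crystallins. *Mip*, the lens water channel, had 0.21, *Grifin*, a lens galectin, 0.25 and *Gja3*, a fibre connexin, 0.13, like the α-crystallins. *Lim2* was listed at 0 in all 10 libraries, and whether its reads were lost in counting was not tested.

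AAV::*nsHif1a* replicate 4, the library with the highest γ level and the lowest *Crygn*, also held the fewest counts of *Foxe3*, a lens epithelium factor, with 13 where the other 9 held 92 to 207. *Pitx3*, a further lens factor, had 54 counts there and 80 to 151 elsewhere. *Crygn* had r = 0.79 with *Pitx3* and r = 0.55 with *Foxe3* over the 10 libraries. These genes were compared with *Crygn* after their values had been seen.

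The genes most like the γ level among 18840 genes outside the crystallins were *E130119H09Rik*, *Metrnl*, *Hsp25-ps1*, *Tcp11*, *Hspb1*, *Eif5b*, *Birc7* and *Lgsn*, with r from 0.995 down to 0.974 over 10 libraries. Those most like *Cryab* were *Gm6212*, *Ell2*, *Rbm24*, *Grifin*, *Tmem40*, *Dapl1*, *Gpd1* and *Cd24a*, with r from 0.965 to 0.937. No gene stood in both groups of 8, and none of the 16 was called between the vectors.

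Among the other small heat shock proteins, which share the chaperone domain of *Cryaa* and *Cryab*, 3 of the 5 tested were higher with AAV::*nsHif1a*, 2 were lower and none was called. *Hspb1* (log2FC 1.38, SE 0.83) followed the γ level with a slope of 0.72, and reads may be shared with its pseudogene *Hsp25-ps1*. *Hspb2*, the neighbour of *Cryab*, had a slope of -0.10 and *Hspb6* of -0.03. The list of 10 other chaperones of the heat shock response was chosen with earlier results of these data known, so its calls are no independent test. All 10 were higher with AAV::*nsHif1a* (median 0.31) and 3 were called up, where 1.08% of all genes were. These were *Hspa1b* (log2FC 0.69, adjusted p = 0.0012), *Hspa8* (0.53, adjusted p = 0.0016) and *Dnajb1* (0.57, adjusted p = 0.0044), from limma with Benjamini-Hochberg adjustment. At equal γ level 9 of the 10 were higher, 1 was lower and *Hspa1b* alone was called, while *Hspa8* at 0.40 (adjusted p = 0.021) and *Dnajb1* at 0.34 (adjusted p = 0.027) were below the log2FC threshold of 0.5. Of 7 genes named for crystallins but active outside the lens, such as *Cryz*, a quinone reductase, 5 were higher, 2 lower and none was called.

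Markers of neighbouring tissues varied as well. The 7 markers of retinal pigment epithelium, iris and ciliary body, none at 0 in all libraries, summed to 53.9 to 442 CPM with AAV::eGFP and 44.6 to 577 CPM with AAV::*nsHif1a*. With their level as a covariate the log2FC of *Cryaa* was 0.27, close to the 0.21 without it. The 6 cornea markers, of which 3 passed the filter on low counts, summed to 41.3 to 67.3 CPM and 45.3 to 131 CPM, and their part in the crystallin levels was not tested. Of 12 genes of Müller glia and gliosis, 2 were called up and none down, where 1.08% of all genes were called up. The 2 were *Stat3* (log2FC 0.69) and *Edn2* (1.92), and the paper counts *Edn2* among genes of vascular development and angiogenesis. Which retinal cells held these 2 transcripts was not tested. *Glul*, *Rlbp1*, *Slc1a3*, *Aqp4*, *Vim* and *Gfap* were not called. The 8 lens transcription factors had a median log2FC of 0.10, with 6 higher, 2 lower and none called.

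In 661W cells the 10 crystallins took 0.0197% to 0.0257% of all counts, and 2 of the 10 passed the filter on low counts. *Cryab* had 192, 196, 242 and 254 CPM in eGFP replicates 1 to 4 and 197, 213, 239 and 246 CPM in *nsHif1a* replicates 1 to 4. The groups covered nearly the same range, and the log2FC was 0.01 (SE 0.11, 95% limits -0.25 to 0.27).

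*Cryba4* had 34, 37, 46 and 53 counts in eGFP replicates 1 to 4 and 3, 8, 61 and 60 counts in *nsHif1a* replicates 1 to 4, or 2.04 to 3.98 CPM and 0.169 to 3.57 CPM. *nsHif1a* replicates 1 and 2 lay below all eGFP libraries, whereas replicates 3 and 4 lay within their range. The log2FC was -1.38 (SE 0.72, 95% limits -3.00 to 0.24) and was not called down, where 0.0626% of the 15962 genes tested were. In either direction 1.27% were called and 1.21% were called up, with neither *Cryab* nor *Cryba4* among them. It hung on single libraries: without *nsHif1a* replicate 3 or 4 it was -2.79 or -2.75 and was called down, and without replicate 1 or 2 it was 0.28 or 0.19. A fit blocked on replicate number gave -0.46.

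The other 8 genes were at or near the limit of detection in the cells. *Cryaa* had 8, 7, 3 and 0 counts with eGFP and 0, 0, 0 and 1 with *nsHif1a*, and did not pass the filter. *Crybb1* had 0 to 6 counts and *Crybb3* 1 to 5 counts per library, and *Cryba1*, *Cryba2*, *Crybb2*, *Crygs* and *Crygn* had 0 to 3. *Cryga* to *Crygf* together had 0 counts in 7 of the 8 libraries and 5 in eGFP replicate 2. These 8 genes did not pass the filter, so a difference between plasmids was not tested for them, including the lower *Cryaa* counts with *nsHif1a*. None of the 10 other chaperones was called in the cells.

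**Figure D5:**
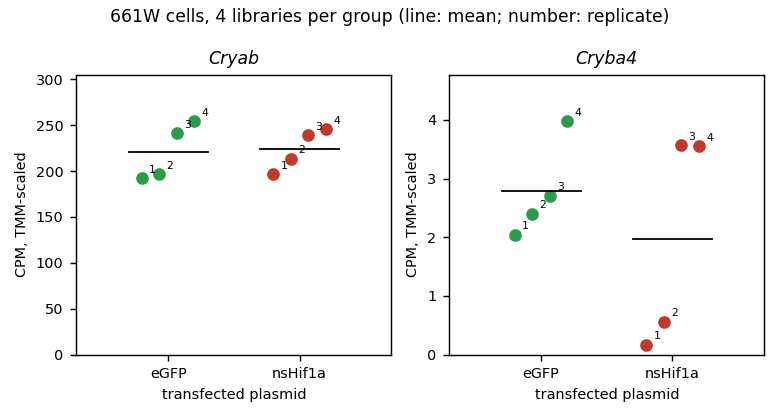
CPM of *Cryab* and *Cryba4* in 661W cells transfected with eGFP (green) or *nsHif1a* (red), 1 point per library numbered by replicate, with the mean of 4 libraries as a line. *Cryab* covers the same range with either plasmid, and *Cryba4* is low in *nsHif1a* replicates 1 and 2 alone.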

How the data were processed

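Retinal and 661W libraries were sequenced as stranded paired-end mRNA. The authors aligned reads to GRCm39 and counted them per gene by strand with featureCounts and the gencode M36 annotation, and deposited these raw counts, not normalized, in a table for each experiment. Reads that fit several similar genes may be lost, which bears on *Cryga* to *Crygf*. Samples were grouped by their labels, and all members and gene lists were chosen with earlier results of these data known.

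Starting from those counts, filterByExpr dropped low genes (minimum count 10), sizes were scaled by TMM (edgeR 4.0.16), and voomWithQualityWeights values were fitted in limma 3.58.1 under R 4.3.3, with the functions that the study's methods name. The direct comparison had the vector alone, and the adjusted one also the mean log2 CPM (prior count 2) of *Cryga* to *Crygf*. Calls needed a Benjamini-Hochberg adjusted p under 0.05 and an absolute log2FC above 0.5. The fits were tested on simulated counts. Levels per length used the canonical transcript of gencode M39, which named 78168 of the genes.

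Named genes were the 10 members, *Cryga* to *Crygf*, up to 4 genes of each other list (largest absolute log2FC or highest CPM), and the 8 most like the γ level and *Cryab*. *Grifin*, *Gja3*, *Bfsp1*, *Pitx3*, *Cryz* and a few others were picked later, with their values known. In the cells, libraries with the same replicate number in the labels deviated together (r = 0.238, 0.227, 0.259 and 0.269 for numbers 1 to 4). The best library of another number reached r = 0.287, 0.246, 0.249 and 0.250, so the number is not singled out. The main fit of the cells was unpaired, and the replicate number was a block in an alternative fit alone. Results were also computed with DESeq2 1.42.0, with the quasi-likelihood test of edgeR, with other size factors, filters, weights and covariates, with the replicate block and without each library.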

Additional observations from a re-analysis of the deposited data

How the results depend on the processing

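None of the 10 members was called in the retina under the 18 alternatives to the direct fit, edgeR's quasi-likelihood test and DESeq2 included. Nor was any called under the 13 alternatives to the fit at equal γ level. *Cryga* to *Crygf* were not followed in these alternatives. In the cells, the number called down was 0 to 1 over the omissions of single libraries, the 1 being *Cryba4* without *nsHif1a* replicate 3 or 4. All 120 slopes on the γ level moved by less than the SE of the slope. For the log2FC the measure was the spread between replicates within groups. Of them, 179 of 180 in the retina, 128 of 130 at equal γ level and 26 of 30 in cells moved by less. The exceptions were *Crygn* with *Xist* class as a covariate (0.42) and *Crygn* (-0.46) and *Cryab* (-0.75) at equal γ level without AAV::*nsHif1a* replicate 2, beside *Cryba4* in cells (-2.79 to 0.28 over single omissions). The median slope of 0.32 was 0.29 to 0.38 over all alternatives. The marker level and replicate set covariates were chosen after seeing the data. With the replicate set (1 and 2, or 3 and 4) added to the fit, *Cryba4* in cells was -0.52. Replicate numbers did not pair the retinal libraries (r from -0.148 to 0.138). With the replicate block, 0 members were called in the retina, at equal γ level and in the cells, and the retinal log2FC of *Cryaa* was 0.32. Depth limited the 8 crystallins at or under 8 counts in cells. The cause of these shifts was not tested.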
